A study of Mus musculus with 2 samples.

Results

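The 6 miRNA genes Mir149, Mir139, Mir153, Mir488, Mir218-2 and Mir218-1 lie in introns of Gpc1, Pde2a, Ptprn2, Astn1, Slit3 and Slit2. They were taken by symbol through the Ensembl gene identifier, and all 6 had a row in both tables, out of 1973 miRNA genes with a row. The libraries were made by microRNA sequencing of total RNA from forebrain of mixed-sex B6NCrl mouse embryos at day 16.5. There were 2 libraries of a single group, labelled biological replicates 1 and 2 and held under separate biosample records. Both were pools of embryos, the label of replicate 2 gives 41 embryos, and the embryos are described as healthy, with no treatment or allele named. The design holds no second condition, and the questions addressed here are how much of each of these miRNAs the forebrain held and how closely the pools matched.

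A miRNA is cut from a hairpin in a longer transcript, first in the nucleus by Drosha and then in the cytoplasm by Dicer, and 1 strand of the resulting duplex is loaded into an Argonaute protein. Bases 2 to 8 of the loaded strand, the seed, pair with target messenger RNAs. When the hairpin lies in an intron on the strand of a protein-coding gene, host messenger RNA and miRNA can be made from the same primary transcript. The hosts here have known roles in neural tissue. Slit2 and Slit3 are secreted ligands that repel growing axons through Robo receptors, and Astn1 (astrotactin) acts in the migration of neurons along glia. Ptprn2 is a membrane protein of dense-core secretory vesicles, Pde2a is a phosphodiesterase that degrades cyclic AMP and cyclic GMP, and Gpc1 is a cell-surface heparan sulfate proteoglycan.

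The mature sequences show which miRNA each gene can produce and which gene a read can be assigned to, so the arms of all 6 genes are given from RefSeq (GRCm38.p6), 5′ to 3′, with the seed in capitals.
mmu-miR-149-5p: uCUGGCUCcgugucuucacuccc
mmu-miR-149-3p: gAGGGAGGgacgggggcggugc
mmu-miR-139-5p: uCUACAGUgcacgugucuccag
mmu-miR-139-3p: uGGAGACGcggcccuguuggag
mmu-miR-153-5p: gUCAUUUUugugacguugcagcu
mmu-miR-153-3p: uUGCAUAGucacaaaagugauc
mmu-miR-488-5p: cCCAGAUAauagcacucucaa
mmu-miR-488-3p: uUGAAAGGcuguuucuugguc
mmu-miR-218-5p: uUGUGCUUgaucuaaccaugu
mmu-miR-218-1-3p: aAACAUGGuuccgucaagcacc
mmu-miR-218-2-3p: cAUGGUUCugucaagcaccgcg
These are 11 distinct arms with 11 distinct seeds, of 21 to 23 bases, and 6 of them start with U. The arms usually regarded as the guides are miR-149-5p, miR-139-5p, miR-153-3p, miR-488-3p and miR-218-5p, and each of these starts with U. The tables give 1 count per gene and do not separate the arms, so which arm supplied the reads was not measured.

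Of the 11 arms, 10 occur in a single miRNA gene of GENCODE M21, and miR-218-5p occurs in 2, Mir218-1 and Mir218-2. The hairpins of this pair are shown with their longest common stretch in capitals.
Mir218-1: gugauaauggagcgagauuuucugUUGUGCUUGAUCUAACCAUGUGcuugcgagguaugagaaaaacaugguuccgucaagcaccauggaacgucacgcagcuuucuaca
Mir218-2: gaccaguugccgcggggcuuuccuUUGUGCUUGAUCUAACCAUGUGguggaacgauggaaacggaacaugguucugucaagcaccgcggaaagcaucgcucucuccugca
The common stretch is 22 bases long and holds the whole of miR-218-5p plus the base after it. The 3p arms of the pair differ, and the longest stretch they have in common is 10 bases. Reads with more than 1 matching locus have a row of their own in the tables, and they made up 40.5% of all reads in replicate 1 and 43.3% in replicate 2. A gene's count is therefore read as uniquely placed reads, and the counts of Mir218-1 and Mir218-2 set no upper limit on the level of miR-218-5p. The other 4 hairpins share at most 15 bases with any other annotated miRNA gene. That longest stretch is a purine-rich run of Mir149 that is also in Gm27864. Matches elsewhere in the genome were not searched here.

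Every one of the 6 genes lies on the strand of its host and in no annotated exon of it (GRCm38 coordinates). The intron number below is counted in a reference transcript, the APPRIS principal transcript or else the one with the longest coding sequence. Not every annotated transcript of a host spans its miRNA gene. Those that do are 1 of 5 for Gpc1, 10 of 12 for Pde2a and 2 of 5 for Ptprn2. For Astn1 they are 5 of 11, for Slit3 1 of 4 and for Slit2 7 of 23. Mir149 (ENSMUSG00000065470.1) is at chromosome 1, 92850378 to 92850443, in intron 1 of 8 of Gpc1, which at 21.2 kb is the longest intron of that transcript. Mir139 (ENSMUSG00000065446.1) is at chromosome 7, 101475376 to 101475443, in intron 2 of 30 of Pde2a, again the longest, at 29.9 kb. Mir149 lies 64.4% and Mir139 58.9% of the way along the whole annotated host gene from its start. The reference transcript of Pde2a starts inside that gene, and along its 62.3 kb Mir139 lies at 24.9 kb.

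The remaining genes lie in shorter introns inside longer hosts. Mir153 (ENSMUSG00000065538.1), at chromosome 12, 117250817 to 117250885, is in intron 19 of 22 of Ptprn2, a gene of 791 kb, and lies 96.7% of the way along it. Mir488 (ENSMUSG00000070103.2), at chromosome 1, 158505625 to 158505733, starts 155 bases into intron 5 of 22 of Astn1, the closest of the 6 to an upstream exon. Mir218-1 (ENSMUSG00000065603.1), at chromosome 5, 48223942 to 48224051, is in intron 16 of 38 of Slit2, 601 bases before the next exon. Mir218-2 (ENSMUSG00000065583.1), at chromosome 11, 35616816 to 35616925, is in intron 14 of 35 of Slit3, with 4.38 kb before it and 5.08 kb after it to the nearest exons. GENCODE M21 lists antisense genes over Mir153 (Gm5441) and Mir488 (Gm37679) and a second protein-coding gene, Gm45837, over Mir139. No other miRNA gene is annotated within the 6 hosts, on either strand.

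**Figure D1:**
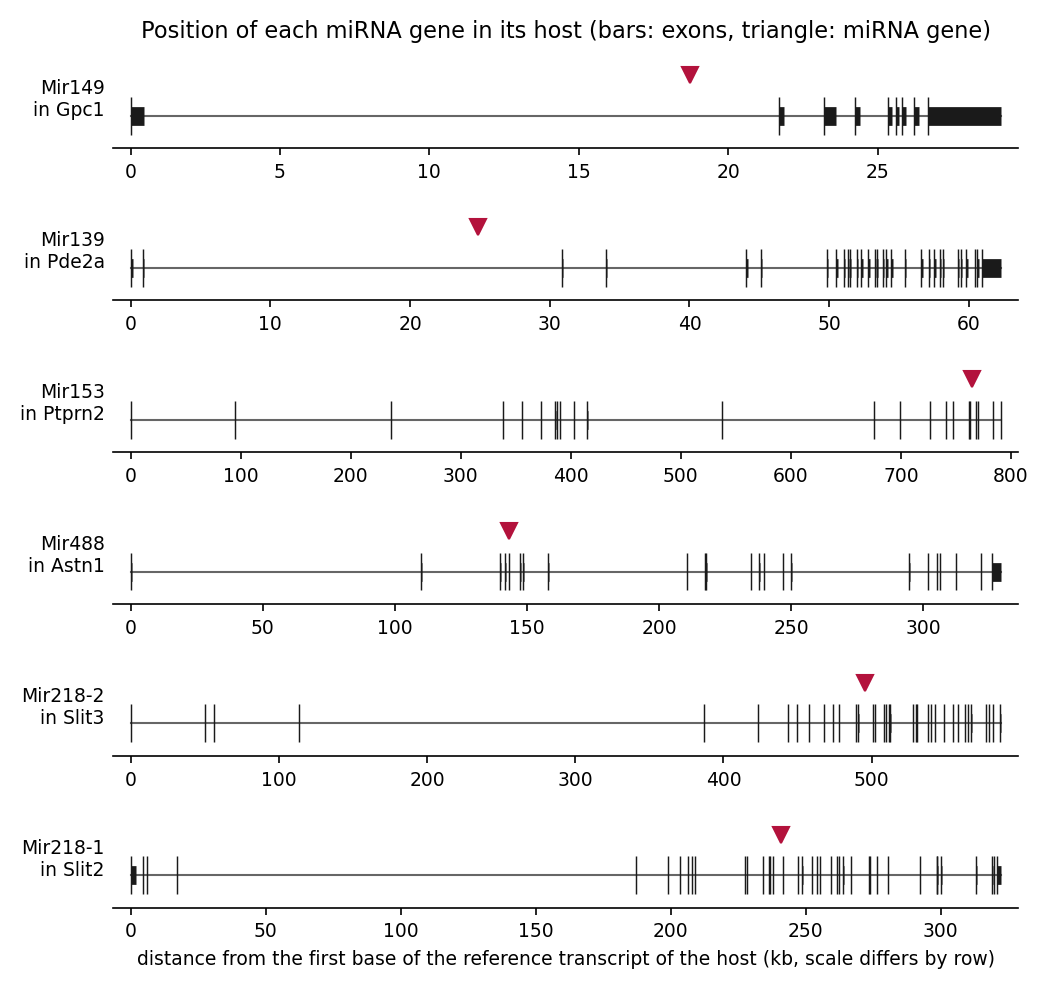
Each row draws the exons of the reference transcript of a host as black bars against the distance from its first base in kb, with the scale differing by row, and the miRNA gene as a triangle. Mir149 and Mir139 sit in the longest intron of Gpc1 and Pde2a, and Mir153 sits near the 3′ end of Ptprn2.

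On the gene strand, replicate 1 held 5060112 counts and replicate 2 held 4158686, and levels are given as CPM, counts per 1000000 of that total. For reads with a single matching locus, a count of 0 leaves room for 0.593 CPM in replicate 1 and 0.721 CPM in replicate 2, taken as 3 counts and covering counting error only. It sets no limit for sequence that other loci share. A gene is called detected here when each library had 5 counts or more, which 438 genes reached. Of the neural markers, 9 of 10 had a row, 8 of these were detected and none was at 0. Their summed level was 23314 CPM in replicate 1 and 22637 CPM in replicate 2. Mir137 had the highest counts of the list, 66989 in replicate 1 and 47645 in replicate 2. Mir124a-1, Mir124a-2, Mir124a-3 and Mir9-2 had 25, 7, 6 and 22 counts in replicate 1 and 15, 9, 4 and 12 in replicate 2. Such low counts of uniquely placed reads set no upper limit where other loci share the sequence. Markers of other cells or regions were summed in the same way and ranged, by list, from 18.8 CPM (muscle) to 16611 CPM (endothelial, Mir126a alone) in replicate 1. The hindbrain and spinal Hox list summed to 757 CPM in replicate 1 and 484 CPM in replicate 2. For the choroid plexus and ciliated list the sums were 4929 CPM in replicate 1 and 5068 CPM in replicate 2. The muscle sum came from Mir206 alone, at 18.8 CPM in replicate 1 and 25.2 CPM in replicate 2. Mir1a-1, Mir133a-1 and Mir133a-2 were at 0 uniquely placed reads, and since each shares 22 bases with another miRNA gene a level cannot be bounded from these zeros.

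In uniquely placed reads, the 6 genes covered a 1727-fold range of CPM and fell in 1 order in both libraries, from Mir149 to Mir218-1. Together they held 3.02% of the gene-strand counts in replicate 1 and 2.54% in replicate 2, a mean of 2.78% ± 0.334 (SD, n = 2). Mir149 alone supplied 77.1% of that sum. All 6 were detected, as were 22.2% of all genes with a row.

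Mir149, whose host Gpc1 binds growth factors at the cell surface, had 116154 counts in replicate 1 and 82704 in replicate 2. These are 22955 and 19887 CPM, a mean of 21421 ± 2169 CPM (SD, n = 2). By uniquely placed reads it ranked 9th of all miRNA genes by the mean, 10th in replicate 1 and 9th in replicate 2. These ranks leave out reads with several matching loci, and 904 of the 1973 genes share 22 bases with another miRNA gene. Such genes can stand lower here than by all of their reads. Next above Mir149 was Mir30e, in an intron of Nfyc, at 24178 ± 1840 CPM, and next below was Mir99b at 20925 ± 2008 CPM. Mir30e was the higher of these in both libraries, by more than the SD of Mir149, and Mir99b differed from Mir149 by less than that SD. Mir30e shares 22 bases with another miRNA gene, so its level is uncertain.

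Mir139 and Mir153 were the members at intermediate levels. Mir139, in the phosphodiesterase gene Pde2a, had 23948 and 15565 counts, or 4733 CPM in replicate 1 and 3743 CPM in replicate 2. Its mean was 4238 ± 700.0 CPM (SD, n = 2), rank 42. Mir153, in the secretory vesicle gene Ptprn2, had 11217 and 6454 counts, or 2217 and 1552 CPM. Its mean was 1884 ± 470.1 CPM, rank 71. For both genes replicate 1 held the higher level, and the lowest Mir139 value lay above the highest Mir153 value.

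Next to Mir139 in the order stood Mir143 at 4242 ± 163 CPM and Mir92b at 4025 ± 162 CPM. Mir153 was flanked by Mir128-2, in an intron of Arpp21, at 2065 ± 203 CPM and Mir107, in an intron of Pank1, at 1820 ± 171 CPM. Each of these differed from its member by less than the SD of that member. Mir128-2 and Mir107 share 22 bases with other miRNA genes, so their levels are uncertain.

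Mir488, in the neuronal migration gene Astn1, was lower and, relative to gene-strand totals without further scaling, almost equal in the pools. It had 1099 and 889 counts, or 217 CPM in replicate 1 and 214 CPM in replicate 2, a mean of 215 ± 2.42 CPM (SD, n = 2) and rank 154. Its neighbours were Mir221 at 226 ± 1.65 CPM, higher than Mir488 in both libraries, and Mir485 at 214 ± 46.8 CPM. With only 2 libraries, an SD this small is itself imprecise. The exact Poisson 95% intervals of Mir488 were wider, 204.5 to 230.4 CPM in replicate 1 and 199.9 to 228.3 CPM in replicate 2.

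The Mir218 genes of the Slit hosts had the lowest counts of uniquely placed reads. Mir218-2 had 112 and 107 counts, or 22.1 and 25.7 CPM, a mean of 23.9 ± 2.54 CPM (SD, n = 2) and rank 275. Mir218-1 had 72 and 44 counts, or 14.2 and 10.6 CPM, a mean of 12.4 ± 2.58 CPM and rank 292. Mir218-2 was the higher of the pair in both libraries. Their neighbours in the order were Mir7689 at 23.9 ± 6.66 CPM and Mir181b-1 at 23.4 ± 1.07 CPM for Mir218-2, and Mir215 at 12.41 ± 8.71 CPM and Mir19b-1 at 12.38 ± 0.178 CPM for Mir218-1. Mir181b-1 and Mir19b-1 share 22 bases with other miRNA genes, so their levels are uncertain too. As shown by the hairpins above, a read of miR-218-5p itself matches both loci, so these values describe only the part of the output that separates the genes.

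**Figure D2:**
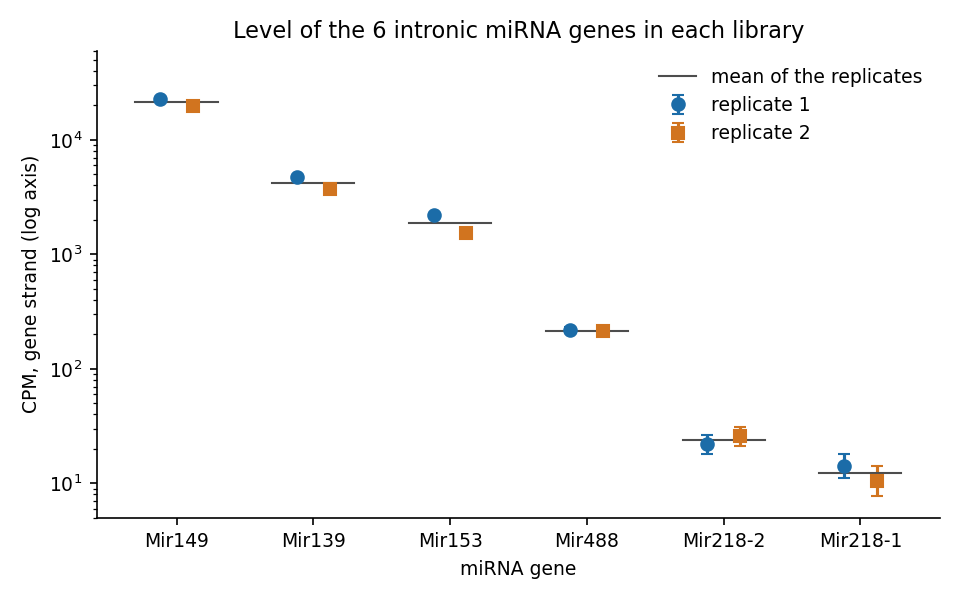
CPM on a log axis for each of the 6 genes in replicate 1 (circles) and replicate 2 (squares), with exact Poisson 95% intervals and a line at the mean. The order of the genes is the same in both libraries, and the intervals are visible only for Mir218-2 and Mir218-1, the genes with the fewest counts.

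Steps between neighbours in this order were larger than the spread between pools in all 5 cases. In CPM, Mir149 was 5.08 ± 0.328 times Mir139 (SD of the ratio, n = 2), Mir139 was 2.27 ± 0.196 times Mir153, and Mir153 was 8.73 ± 2.08 times Mir488. Mir488 was 9.06 ± 1.06 times Mir218-2, and Mir218-2 was 1.99 ± 0.620 times Mir218-1. The steps that involve the Mir218 genes compare uniquely placed reads only. Reads of miR-218-5p match both of those genes, so these steps do not measure its level. The exact Poisson 95% intervals of neighbours did not overlap in any library. A small RNA read covers a whole mature arm, so CPM was not divided by length. Per 100 bases of annotated gene the order was the same, from 32456 CPM for Mir149 to 11.3 CPM for Mir218-1.

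Within the Mir218 pair, Mir218-1 supplied 39.1% of the 184 uniquely placed reads in replicate 1 (exact Clopper-Pearson 95% interval 32.0% to 46.6%). In replicate 2 it supplied 29.1% of 151 reads (22.04% to 37.1%). The intervals overlapped, and the difference in the split between the libraries did not pass 0.05 by Fisher's exact test (two-sided p = 0.0649). The sum of the pair was 36.4 CPM in replicate 1 and 36.3 CPM in replicate 2, relative to gene-strand totals without further scaling. Counting error on 184 and 151 reads is larger than this gap, so the closeness is not read as a property of the pair. Neither the split nor the sum includes reads placed at several loci.

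Other miRNA pairs with an identical arm were set beside the Mir218 genes, a comparison chosen after the values were seen. There were 44 pairs of genes with a row in which a mature sequence occurs in exactly 2 miRNA genes. In 22 of them a single arm is identical and both genes were detected. By summed CPM the Mir218 pair was 19th of these 22, which ranged from 5.19 to 7067 CPM with a median of 516 CPM. Mir128-1 and Mir128-2, hosted by R3hdm1 and Arpp21, share 23 bases and stood at 3810 ± 445 and 2065 ± 203 CPM, the 2nd highest sum. Next above the Mir218 pair, Mir26a-1 and Mir26a-2 share 25 bases and stood at 6.27 ± 0.361 and 35.3 ± 5.39 CPM. A gene can be in more than 1 of these pairs. How far shared reads lower each sum was not tested.

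No uniquely placed read fell on the strand opposite to any of the 6 genes, in either library. For Mir149, Mir139, Mir153 and Mir488, the limit of 3 counts allows up to 0.593 CPM of such reads there in replicate 1 and 0.721 CPM in replicate 2. Antisense genes are annotated over Mir153 and Mir488. For Mir218-1 and Mir218-2 the 0 sets no limit on reads opposite the 22 bases that the pair shares.

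Among miRNA genes with the same kind of location, Mir149, Mir139 and Mir153 stood high. By GENCODE M21, 648 other genes with a row lie in an intron of a protein-coding gene on its strand and overlap none of its exons. Of these, 174 were detected and 340 had no count. The 174 detected genes had a median of 27.1 CPM and a middle 50% between 3.18 and 523 CPM. Only 396 of the 648 share no 22 bases with another miRNA gene. Of those 396, 144 were detected, with a median of 19.0 CPM, and 133 had no count. For genes that do share 22 bases, a low count or a 0 sets no upper limit. With the members this makes 180 detected intronic genes. Among these Mir149 ranked 4th, Mir139 19th, Mir153 29th, Mir488 57th, Mir218-2 95th and Mir218-1 103rd. The ranks of the Mir218 genes exclude reads that match both.

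The intronic gene with the highest level of uniquely placed reads was Mirlet7g, in Wdr82, at 78156 ± 149 CPM. Mir335 in the imprinted gene Mest followed at 33440 ± 5831 CPM, then Mir30e, Mir149 and Mir99b. The median of the 6 members was 1050 CPM. They were listed by host gene with earlier results known, so this difference from the class is given as a description without a test.

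**Figure D3:**
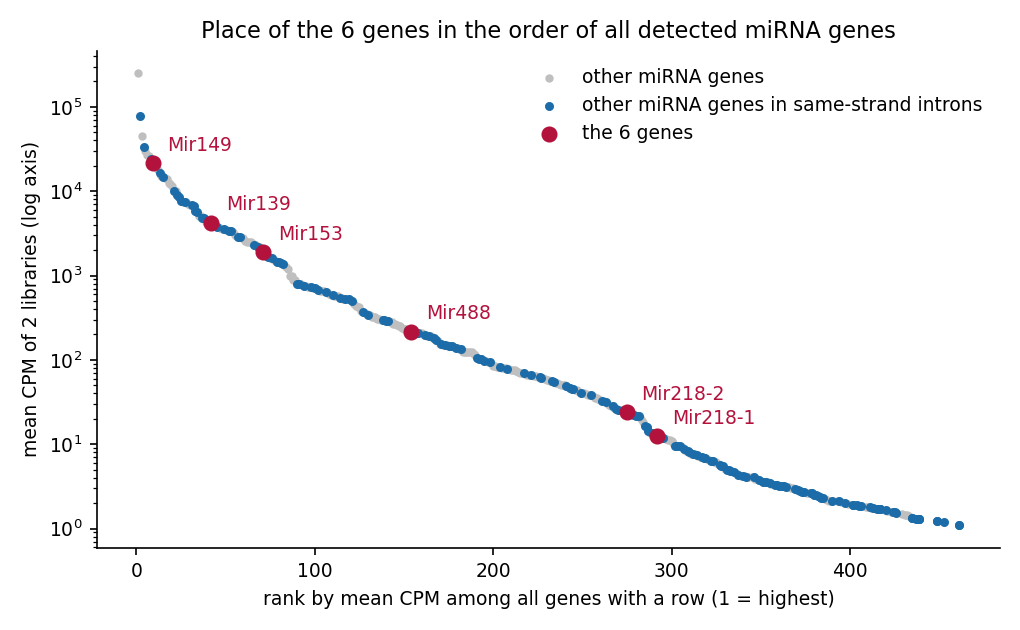
Mean CPM on a log axis against rank for the 438 detected genes, with miRNA genes in same-strand introns in blue, the 6 genes in red and the remainder in grey. By uniquely placed reads, Mir149 is 9th of all genes and Mir218-1 is 292nd.

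A wider list of 20 miRNA genes, taken as having neural hosts, put the members in context. Expression of these hosts was not measured here. Mir7b was dropped because no same-strand protein-coding host is annotated for it. The other 19 were all detected, with levels from 7.38 CPM (Mir504, in Fgf13) to 9060 CPM (Mir708, in the teneurin gene Tenm4) and a median of 149 CPM. None was above Mir149. Only Mir708 and Mir342, in the actin regulator gene Evl, at 7402 ± 2122 CPM, were above Mir139, while 5 were above Mir153 and 8 above Mir488. Mir598 in Xkr6 stood at 2175 ± 623 CPM and Mir1298, in the serotonin receptor gene Htr2c, at 1466 ± 212 CPM. Mir448, also in Htr2c, was at 149 ± 13.2 CPM. These 2 genes share a host and lay apart in both libraries. Of the 19 genes, 4 share 22 bases with another miRNA gene, Mir708 among them, and their levels are uncertain. Mir592, in Grm8, and Mir330, in Eml2, overlap an annotated exon of the host, which no member does.

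The hairpins of Mir149 and Mir139 had the highest GC content and, per 100 bases, the lowest predicted folding energy of the 6. The GC content was 68.2% for Mir149, 58.8% for Mir139, 54.5% for Mir218-2, 45.5% for Mir218-1, 42.2% for Mir488 and 42.0% for Mir153. Of 1005 hairpins in the RefSeq table, whose median was 51.7%, 95.9% had a lower GC content than Mir149. The folding energy predicted by RNAfold was -55.6 kcal/mol per 100 bases for Mir149 and -52.4 for Mir139, against a median of -40.6. It was -44.6 for Mir153, -38.5 for Mir218-2, -35.5 for Mir488 and -33.3 for Mir218-1. Annotated hairpin lengths run from 66 bases for Mir149 to 110 for the Mir218 genes and include different amounts of flanking sequence. Undivided, the energies were -42.3 kcal/mol for Mir218-2, -38.7 for Mir488, -36.7 for Mir149, -36.6 for Mir218-1, -35.6 for Mir139 and -30.8 for Mir153, a different order. GC content did not follow level through all 6 genes, since Mir153 had the lowest GC content and the 3rd highest level.

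**Figure D4:**
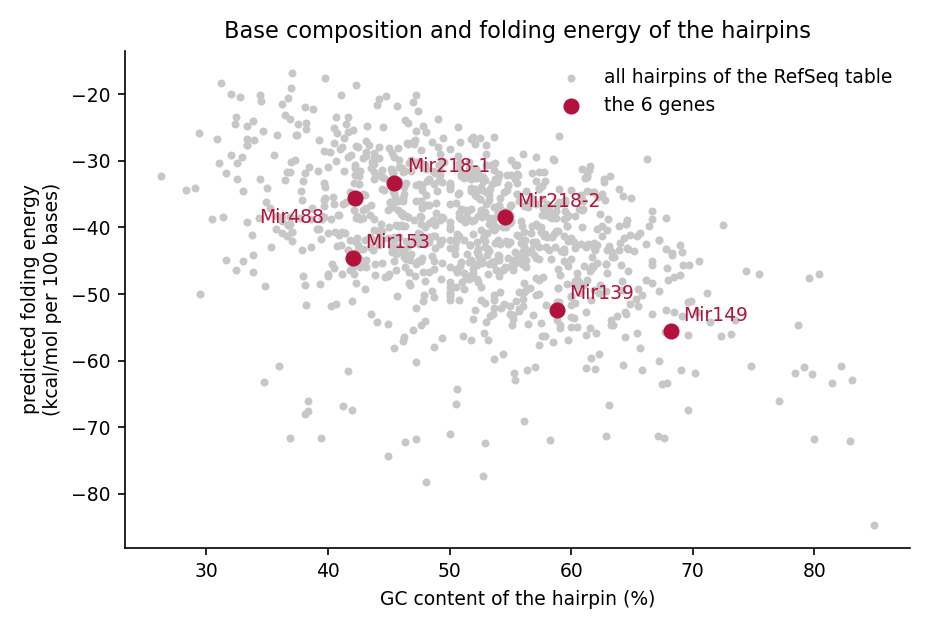
Predicted folding energy in kcal/mol per 100 bases against GC content in percent for 1005 RefSeq hairpins (grey) and the 6 genes (red). Mir149 lies at 68.2% GC and -55.6 kcal/mol per 100 bases, and Mir153 and Mir488 lie near 42% GC.

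Few other miRNAs carry a seed of these genes. The RefSeq table held 1679 mature miRNAs, and for 8 of the 11 arms no other one had the same bases 2 to 8. The seed of miR-218-5p occurs in miR-7002-3p, shown here because it matches the first 8 bases of that arm.
mmu-miR-7002-3p: uUGUGCUUccccuugccag
Mir7002 had no count in either library. The seed of miR-218-1-3p occurs in miR-496b, whose gene Mir496b had no count either. The seed of miR-149-3p occurs in miR-7016-5p, miR-1943-5p and miR-6967-5p. Mir7016 had 3 and 5 counts and Mir1943 had 12 and 6, while both genes of miR-6967-5p, Gm27775 and Gm27740, had none. The latter 2 share 22 bases with another miRNA gene, so their counts of 0 set no upper limit.

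Mir149, Mir139 and Mir153 were lower in replicate 2 than in replicate 1 beyond counting noise, and the other 3 genes were not called. Each gene's pair of counts was compared by an exact binomial test, two-sided, after TMM scaling of the totals in edgeR (a trimmed mean of log ratios between libraries). It was adjusted by the Benjamini-Hochberg method over all 466 genes whose summed count reached 10. At an adjusted p under 0.05 it called 45.3% of the tested genes, 23.4% higher in replicate 2 and 21.9% lower. Of the 6 members, 0 were called higher and 3 lower. It compares these 2 libraries only, takes reads as independent and allows nothing for the spread between pools.

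The largest called difference among the members was that of Mir153, with a log2 ratio of -0.37 (replicate 2 over replicate 1, 95% interval -0.41 to -0.33, adjusted p = 9.53e-61 by the exact binomial test). Among the 273 genes that reached 100 counts in each library, 34.1% had a larger difference in either direction. Mir139 had a ratio of -0.19 (-0.22 to -0.17, exact binomial adjusted p = 1.41e-38), and 57.1% of those genes differed more. Mir149 had a ratio of -0.06 (-0.08 to -0.05, exact binomial adjusted p = 4.75e-21), and 83.5% differed more. Mir149 thus had the smallest of the called differences and the most counts.

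For the genes with fewer counts the intervals were wider. Mir488 had a log2 ratio of 0.12 (-0.01 to 0.25, exact binomial adjusted p = 0.125), Mir218-2 of 0.36 (-0.03 to 0.76, adjusted p = 0.127) and Mir218-1 of -0.28 (-0.86 to 0.28, adjusted p = 0.515). These 3 intervals include 0. The median ratio was -0.13 over the 6 members and 0.01 over all 466 tested genes. With unscaled totals every ratio shifted by -0.14, and the ratio of Mir488 turned to -0.02. Of the 19 genes in the wider list, 4 were called higher and 7 lower in replicate 2, beside 23.4% and 21.9% of all tested genes.

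**Figure D5:**
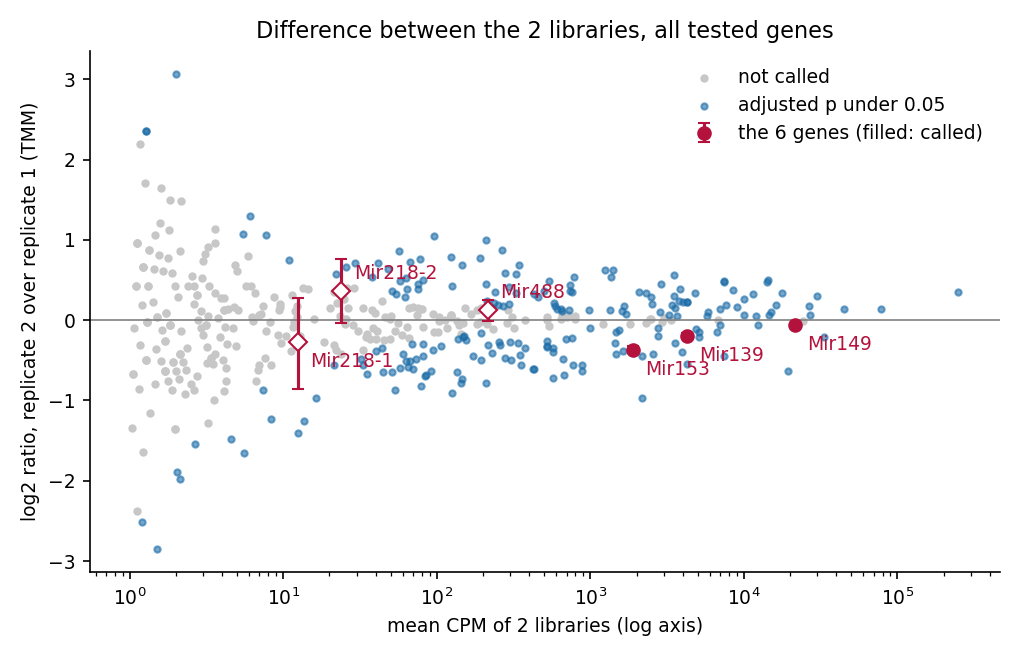
Log2 ratio of replicate 2 over replicate 1 (TMM) against mean CPM on a log axis for the 466 tested genes, grey where not called and blue at an adjusted p under 0.05. The 6 genes are red with 95% intervals from the binomial counts, and the filled ones, Mir153, Mir139 and Mir149, were called lower.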

How the data were processed

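The authors deposited 1 table of raw read counts per gene for each library, with no header. The assembly was mm10 and the annotation GENCODE M4, per the descriptions deposited beside the tables. Aligner, counter and trimming of reads were not given in the sources used here. Each table has a count without regard to strand and 1 count per strand, and the first equals the sum of the others for every gene. The gene strand is the strand whose column had the larger sum. The 4 rows of unassigned reads stayed out of totals and tests. Unmapped reads were 19.1% of all reads in replicate 1 and 15.2% in replicate 2, and uniquely placed reads outside the genes 2.50% and 2.82%.

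Symbols, hosts and introns came from GENCODE M21 (GRCm38, the assembly named mm10) by gene identifier without version, matching 1894 of 1973 genes. Mature and hairpin sequences came from RefSeq (GRCm38.p6), and the hairpins equal the GENCODE sequences for all 6 genes. CPM is relative to the gene-strand total. TMM factors (edgeR 4.0.16, R 4.3.3) were computed on genes with at least 10 summed counts. The exact binomial test and intervals used SciPy 1.17.1, with 0.5 added to each count in log2 ratios. Folding energies came from RNAfold of ViennaRNA 2.7.2. No quasi-likelihood test can be fitted to 1 group. With counts simulated over 464 tested genes, the binomial test called 81.2% of genes changed by 1 on the log2 scale. It called 94.9% of those changed by 2 and 1.11% of unchanged genes. The simulated counts held Poisson counting error only, without spread between pools, and the test was given their unscaled totals. The 1.11% is therefore not an error rate for the 2 real libraries.

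Named genes are the 6 members, genes with a seed of theirs and the genes directly above and below each member by mean CPM. Also named are the 5 intronic genes with the highest mean CPM. Genes of the wider list, of the marker lists and of the pairs with an identical arm are named beside them, as examples chosen after their values were seen. The members and lists were chosen with earlier results of these data known. Alternatives tried were unstranded counts, all reads as denominator, other scalings (unscaled totals, DESeq2 1.42.0 size factors), another added count, other count minimums and leaving out each replicate.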

Additional observations from a re-analysis of the deposited data

How the results depend on the processing

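Of 94 values recomputed under an alternative, 78 kept their direction and their side of the threshold or moved by less than the spread between replicates. Another 15 moved more and 1 changed sign. Some of the 78 could not have moved. With 2 libraries, leaving 1 out shifts a mean by less than its SD whatever the counts. The added count does not enter the binomial p. With all reads as the denominator, which includes unassigned reads, levels were 8040 CPM for Mir149, 1590 for Mir139, 707 for Mir153, 80.9 for Mir488, 8.995 for Mir218-2 and 4.65 for Mir218-1, in the same order. Without regard to strand, Mir488 was at 212 CPM, a change that exceeds its small SD because the total is larger. The log2 ratio of Mir488 between the libraries was -0.023 with unscaled totals, where it was 0.12 with TMM, and was called under neither. The median of the other same-strand intronic genes was 0 CPM over all 648 and 27.1 CPM over the detected ones. The other values that moved were ranks. Calls of the members were 0 higher and 3 lower in replicate 2 under unscaled totals, DESeq2 size factors, unstranded counts and every count minimum tried. Over all genes the main test called 211 of 466, or 45.3%. The alternatives called between 203 (summed count of at least 100) and 225 (unstranded counts), with the number tested changing with the minimum. Leaving out a replicate leaves 1 library and no difference to test. No paired analysis was possible because the libraries form a single group. Counting error is widest for Mir218-1 and Mir218-2, with at most 112 counts each. Reads that match both of these genes are left out of their counts whatever the depth.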
